A study of Mus musculus with 6 samples.

Results

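The smooth muscle contractile genes of the testis were followed in whole testes of mice at postnatal day 21, comparing 3 Nxf2 knockout (KO) with 3 wild-type (WT) samples. The 10 genes are Acta2, Actg2, Myh11, Myl9, Mylk, Cald1, Cnn1, Tagln, Lmod1 and Des. They were chosen by name: every probe set of the array whose single gene symbol is 1 of the 10 was taken, which gave 20 of the 34945 probe sets with 1 symbol, or 10 of 18193 genes. These genes, and the lists used further on, were chosen with earlier results of these data known. Nxf2 is an X-linked germ cell relative of the mRNA export receptor gene Nxf1. Both groups are juvenile animals of the same age for which no treatment is named, and per the submitters testis weight did not differ much between the genotypes at this age. The sources used here give no strain, knockout allele or number of animals per sample. The p-values therefore measure only the spread between these samples, which may be technical. In whole testis RNA, fewer cells of a type and less RNA per cell cannot be told apart.

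Peritubular myoid cells are flat, smooth-muscle-like cells that wrap each seminiferous tubule, and their contractions move fluid and sperm along it. They use the smooth muscle machinery: calcium and calmodulin activate the myosin light chain kinase Mylk, which phosphorylates the regulatory light chain Myl9 and lets smooth muscle myosin (Myh11) pull on actin filaments of Acta2 and Actg2. Cald1 and Cnn1 restrain this interaction on the thin filament, Tagln binds and bundles actin, Lmod1 starts new actin filaments, and Des forms intermediate filaments that tie the contractile apparatus together. Vascular smooth muscle uses the same genes, so in whole tissue they are not markers of myoid cells alone. Their transcription is classically controlled by serum response factor (Srf) with its coactivators Myocd, Mrtfa and Mrtfb at CArG boxes, and by TEAD factors at MCAT elements.

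RefSeq promoters of build GRCm38.p6 were matched for 7 of the 10 genes, with 8 windows in all because Cald1 has a pair of starts; Myh11, Tagln and Actg2 were not matched. The 250 bases before each start were searched on both strands for the CArG box, exact or with up to 1 letter changed, and for the MCAT core CATTCC. The stretches below show these matches in capitals, 5′ to 3′ on the gene's strand. Sites of these kinds are known to serve the regulators described further on, but whether the printed matches are bound was not tested. The matches do not overlap each other.
Acta2, chr19:34255378-34255477, minus strand: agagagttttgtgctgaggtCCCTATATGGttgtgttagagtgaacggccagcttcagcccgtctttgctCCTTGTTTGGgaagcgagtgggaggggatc
Acta2, chr19:34255494-34255539, minus strand: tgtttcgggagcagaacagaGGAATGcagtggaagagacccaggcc
Myl9, chr2:156775283-156775332, plus strand: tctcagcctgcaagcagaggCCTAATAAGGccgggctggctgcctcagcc
Myl9, chr2:156775345-156775394, plus strand: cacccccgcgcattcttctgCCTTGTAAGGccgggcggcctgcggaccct
Lmod1, chr1:135324604-135324708, plus strand: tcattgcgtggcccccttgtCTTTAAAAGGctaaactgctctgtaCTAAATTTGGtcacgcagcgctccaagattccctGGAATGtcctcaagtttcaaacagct
Mylk, chr16:34784772-34784817, plus strand: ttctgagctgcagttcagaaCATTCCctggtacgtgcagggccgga
Cald1, chr6:34598281-34598376, plus strand: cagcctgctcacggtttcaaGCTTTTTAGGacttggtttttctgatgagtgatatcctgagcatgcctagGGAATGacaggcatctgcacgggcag
The exact CArG box was found in 1 of the 8 windows (Myl9), against 1.47% of 32851 promoters of the same length. A CArG box with up to 1 letter changed was found in 4 windows (Acta2, Myl9, Lmod1 and the first start of Cald1), against 18.6% of all promoters. The MCAT core was found in 4 windows (Acta2, Lmod1, Mylk and the first start of Cald1), against 12.6% of all promoters. The windows of Des, Cnn1 and the other start of Cald1 held neither, which says only that these letters are not in these windows.

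**Figure D1:**
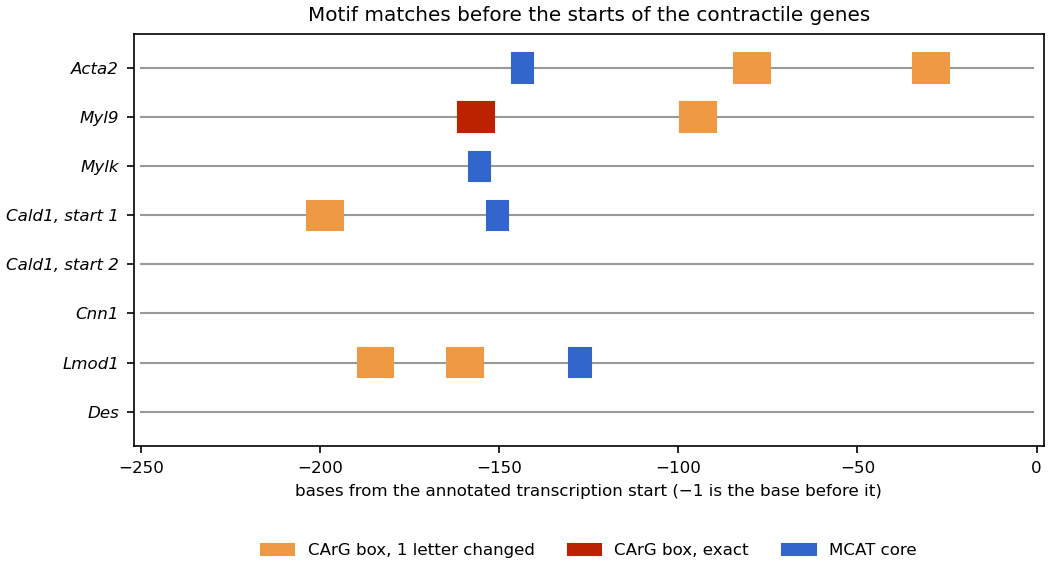
Positions of motif matches in the 250 bases before the annotated starts of the matched contractile genes. The x axis is the distance from the start in bases, each line is a promoter window, and boxes mark exact CArG boxes, CArG boxes with 1 letter changed and MCAT cores; 5 of the 8 windows hold at least a match.

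The values are MAS5 signal intensities on a linear scale, 1 per probe set and array. The labelled knockout was checked first: Nxf2 gave 374, 340.4 and 386 in WT and 116, 106 and 131 in KO, so the groups did not overlap. The fit (limma) gave a log2 fold change of -1.59 with an adjusted p of 0.000488. The labels do not say where this probe set lies relative to the deletion. The median signal was 37.1 to 40.9 on the 6 arrays, lowest in WT replicate 3 and highest in KO replicate 3. The 3′ to 5′ signal ratio of the Actb control, which rises as RNA degrades, was 1.77 to 2.19. It was lowest in KO replicate 3 and highest in WT replicate 3.

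None of the contractile genes passed the test for a change in KO testes. Of the 20 probe sets, 15 were bright enough to be tested, and 0 of 15 passed at an adjusted p under 0.05 in limma, against 7.49% of all 27022 tested probe sets (2.26% higher and 5.23% lower in KO; 6.03%, 0.914% and 5.11% after centring each array on its median). At an unadjusted p under 0.05 there were 2 of 15, against 28.5% of all tested probe sets. Means were higher in KO for 8 of the 10 genes by their brightest probe set, with a median log2 fold change of 0.08, and for 56.9% of all tested genes, with a median of 0.036. The members' median was -0.006 without KO replicate 3 and -0.057 with array weights, so its direction rests on KO replicate 3 and on the weighting. In 3 of the 15 tested probe sets every KO array lay above every WT array, as in 19.1% of all tested probe sets. In 0 of the 15 every KO array lay below every WT array, as in 14.8% of all tested probe sets.

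**Figure D2:**
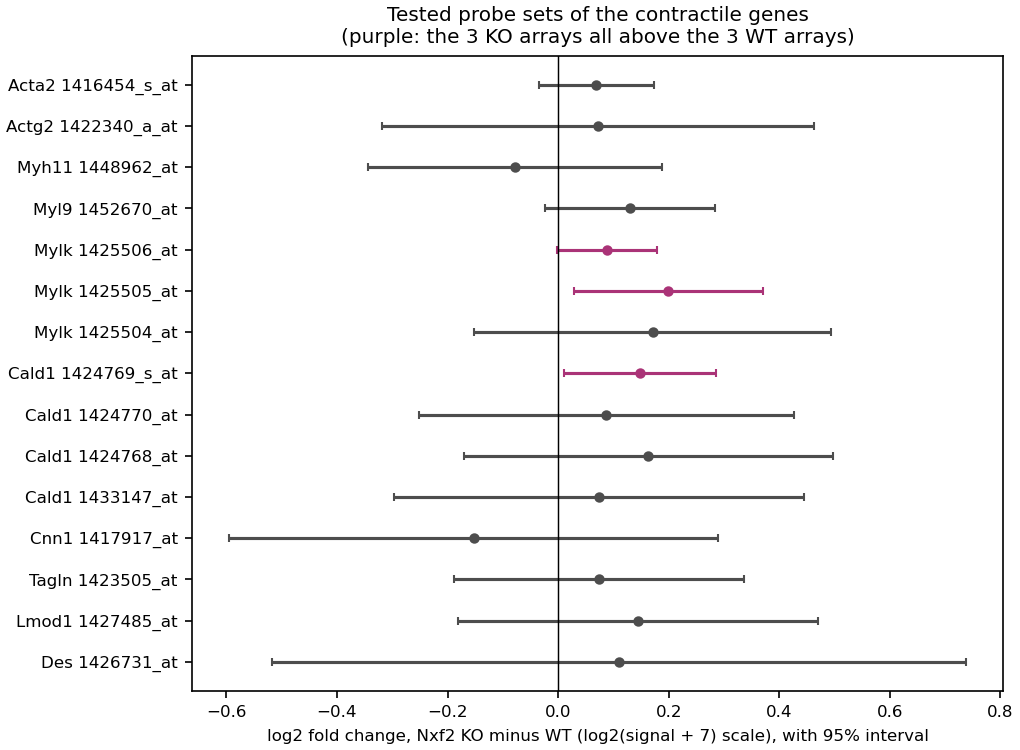
Log2 fold change, KO minus WT, with its unadjusted 95% interval from limma for the 15 tested probe sets of the contractile genes, on the log2(signal + 7) scale. The interval of Acta2 runs from -0.04 to 0.17 and that of Des from -0.52 to 0.74, and the 3 probe sets in purple are those whose KO arrays all lie above the WT arrays.

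Among the actins, Acta2, the alpha smooth muscle actin and the standard marker of myoid cells, was measured at 1264, 1224 and 1271 in WT and at 1342, 1240.4 and 1364 in KO (replicates 1 to 3). The groups overlapped, and KO replicate 2 lay among the WT arrays. The means were 1253 ± 25.2 in WT and 1316 ± 65.9 in KO (SD, n = 3 each). The difference was 1.05-fold with a 95% interval of 0.976 to 1.13 (limma, adjusted p = 0.357). The other 2 Acta2 probe sets were dim, between 9.14 and 18.9 on all arrays, and below the limit of 20.5 for testing.

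Actg2, the gamma actin of visceral smooth muscle, varied more. It was at 152, 112 and 168 in WT and at 124, 141 and 191 in KO, with the highest and the lowest array 1.69-fold apart. The groups overlapped, with the highest array in KO and the lowest in WT. The fold difference was 1.05 with an interval of 0.802 to 1.38 (limma, adjusted p = 0.816). The non-muscle actins, paralogues that nearly every cell expresses, had adjusted p values of 0.35 (Actb) and 0.921 (Actg1). Acta1 and Actc1, the skeletal and cardiac actins, were below the limit for testing, at 0.616 to 14.7 and 0.667 to 5.79.

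Of the myosin genes, Myh11, the smooth muscle heavy chain, had a signal of 276, 249.5 and 296 in WT and of 237, 233 and 313 in KO. KO replicate 3 was the highest of the 6 arrays, while the other KO arrays were the lowest. The log2 fold change was -0.08 ± 0.12 (SE), with a fold interval of 0.787 to 1.14 (limma, adjusted p = 0.698). Its dimmer probe set was below the limit for testing, with 11.7, 9.99 and 12.5 in WT and 8.92, 4.97 and 8.0 in KO. Those KO values all lay below the WT values, and with no filter its log2 fold change was -0.37 (limma, adjusted p = 0.214).

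Myl9, the regulatory light chain, was at 809, 777 and 758 in WT and at 814, 806 and 955 in KO. KO replicate 3 stood above the rest, and KO replicate 2 lay just under WT replicate 1. The means were 782 ± 25.5 in WT and 858 ± 84.1 in KO, a log2 fold change of 0.13 ± 0.0692 (SE, limma, adjusted p = 0.244). Without KO replicate 3 the log2 fold change was 0.051.

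Mylk, the kinase that switches contraction on, and caldesmon (Cald1) were the members with a tested probe set whose groups did not overlap. These are the 3 of 15 probe sets with KO all above WT, near the 19.1% of all tested probe sets. The brightest Mylk probe set was at 1113, 1123 and 1123 in WT and at 1221, 1164 and 1189.6 in KO, with no overlap. The difference was small, 1.06-fold with an interval of 0.998 to 1.13 (limma, adjusted p = 0.186). A second Mylk probe set was at 384, 368 and 365 in WT and at 399.7, 416 and 471 in KO, again with no overlap, and 1.15-fold apart (interval 1.02 to 1.29, limma, adjusted p = 0.128, the lowest of all member probe sets). The third, dimmer one was at 39.0 to 41.5 in WT and 39.0 to 55.2 in KO and overlapped. The platform annotation gives all 3 Mylk probe sets the same source sequence, so they are not independent measurements of the gene.

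The thin filament regulators gave no call either. Cald1, which holds back myosin on the thin filament, has 5 probe sets, of which 4 were tested, with positive log2 fold changes of 0.07 to 0.16. Its brightest was at 529.7, 516 and 537 in WT and at 577, 557 and 622 in KO, so the groups did not overlap. The means were 527 ± 10.6 in WT and 586 ± 33.6 in KO, 1.11-fold apart with an interval of 1.01 to 1.22 (limma, adjusted p = 0.152). By the array maker's suffix its probes, like those of the bright Acta2 probe set, can match more than 1 transcript. A dimmer Cald1 probe set shows how unevenly the gene's probe sets behaved: it was at 174, 160.0 and 144 in WT and at 131, 179.8 and 205 in KO, with both the lowest and the highest array in KO. By the platform annotation all tested Cald1 probe sets but the dimmest share 1 source sequence, so they are not independent measurements.

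Cnn1, calponin, a marker of differentiated smooth muscle, was dim, at 43.4, 29.6 and 44.6 in WT and at 28.7, 29.5 and 46.3 in KO. Each genotype had arrays at both ends, so the groups overlapped. The log2 fold change was -0.15 ± 0.199 (SE), with a fold interval of 0.662 to 1.22 (limma, adjusted p = 0.643). Cnn1 and Myh11 were the only members with lower means in KO by the brightest probe set.

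Tagln (SM22 alpha) was at 419, 399.7 and 377 in WT and at 344, 429 and 499.9 in KO. The WT arrays lay close together inside the range of the KO arrays. The fold difference was 1.05 with an interval of 0.878 to 1.26 (limma, adjusted p = 0.71).

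Lmod1, leiomodin, was at 91.0, 67.0 and 74.0 in WT and at 80.1, 78.0 and 100.2 in KO. The groups overlapped, with WT replicate 1 above KO replicates 1 and 2. The fold difference was 1.11 with an interval of 0.882 to 1.38 (limma, adjusted p = 0.542).

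Des, desmin, was the most variable member. It was at 35.0, 15.2 and 38.3 in WT and at 21.9, 29.8 and 43.0 in KO, 2.83-fold from the lowest to the highest array. The lowest array was WT replicate 2 and the highest KO replicate 3, and the groups overlapped. The interval of the fold difference, 0.699 to 1.67, was the widest of the tested members (limma, adjusted p = 0.824), so changes up to these bounds in either direction lie within the error of these arrays. Its other probe set was between 0.188 and 1.66 and was not tested.

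**Figure D3:**
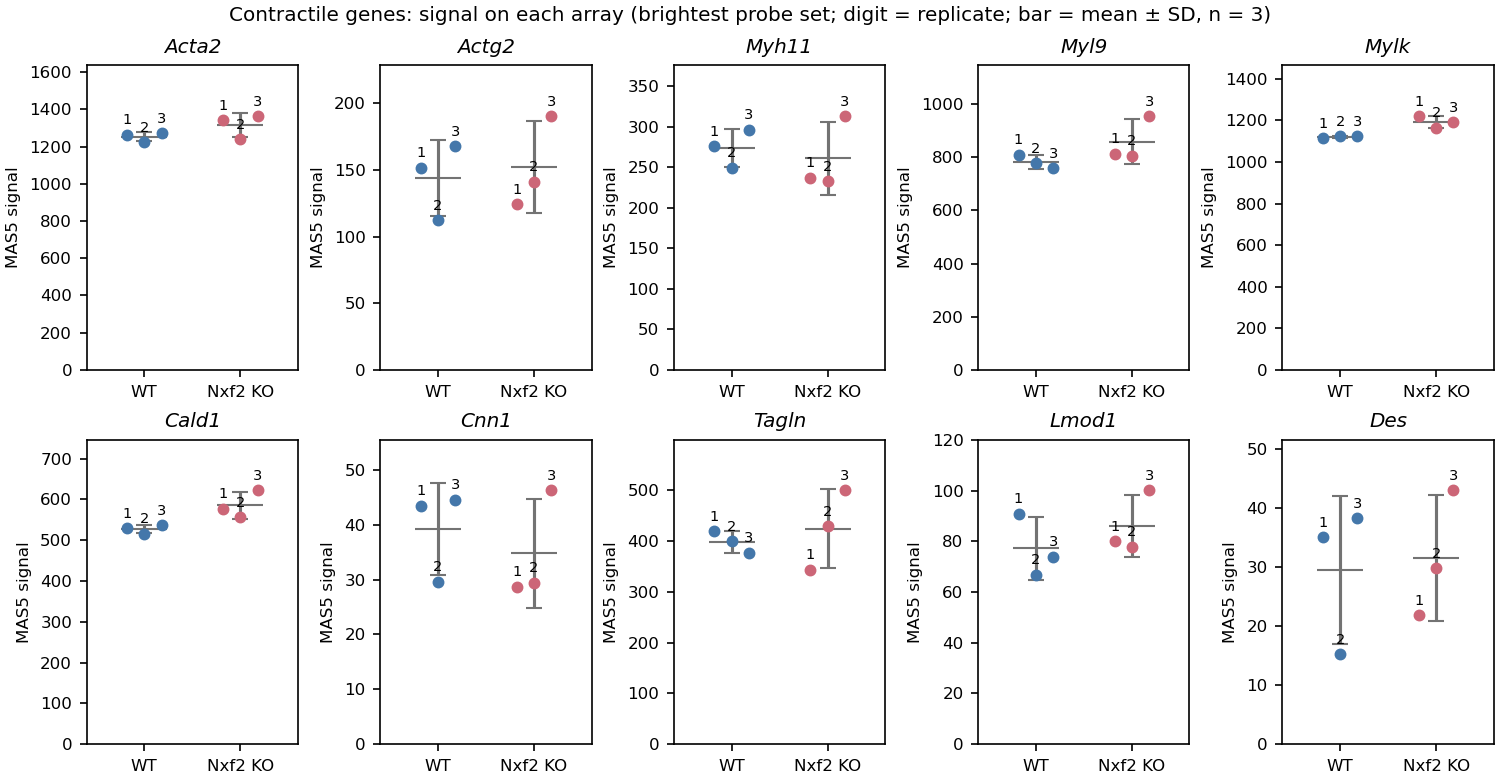
MAS5 signal of each contractile gene by its brightest probe set, with linear axes from 0, for 3 WT (blue) and 3 Nxf2 KO (red) arrays; digits are replicate numbers and bars are the mean ± SD. KO replicate 3 is the highest array in 9 of the 10 panels, and the groups are apart only for Mylk and Cald1. All KO arrays lie above all WT arrays there, as in 19.1% of all tested probe sets.

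Across the contractile genes the arrays of 1 genotype differed among themselves. KO replicate 3 was the highest of the 6 arrays for 9 of the 10 genes, all but Mylk, while it was the highest for 31.1% of all tested probe sets. Its median signal, 40.9, was also the highest, and these values were not rescaled beyond MAS5. WT replicate 2 was the lowest for 5 of the 10 genes (Acta2, Actg2, Cald1, Lmod1 and Des), against 6765 of the 27022 tested probe sets. Relative to each gene's mean over the 6 arrays, the median of the 10 genes on the log2 scale was -0.09, -0.03 and 0.26 in KO replicates 1 to 3. In WT replicates 1 to 3 it was 0.04, -0.10 and -0.03.

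For Myh11, Cnn1, Des and Actg2 the 3 highest arrays came in the same order: KO replicate 3, WT replicate 3 and WT replicate 1. This order, singled out after the values were seen, was shared by 0.651% of all tested probe sets. The other 3 arrays, KO replicates 1 and 2 and WT replicate 2, were then necessarily the lowest for these 4 genes, and their order differed. The lowest array was KO replicate 2 for Myh11, KO replicate 1 for Cnn1 and WT replicate 2 for Des and Actg2. Of the 183 tested genes in the other lists described below, 4 had the same order: Tpm2, a muscle tropomyosin, Cav1, a caveolae protein of smooth muscle and endothelium, Cd14, a macrophage receptor, and Atp2a1, the calcium pump of fast skeletal muscle. The remaining contractile genes did not follow it: for Tagln and the mid-bright Cald1 probe set WT replicate 3 was the second lowest array.

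By their brightest probe sets, several of these genes had a larger spread within groups than most probe sets of like brightness. The standard deviation within groups on the log2 scale was 0.489 for Des, larger than that of 97.1% of tested probe sets with a mean signal within 1.2-fold of it. For Actg2 (SD 0.294) that share was 94.5%, for Tagln (0.196) 93.1%, for Cnn1 (0.302) 85.7%, for Myh11 (0.187) 85.2% and for Myl9 (0.102) 81.2%. Lmod1 (0.196) was at 64.6%, Acta2 (0.0555) at 40.9%, Cald1 (0.0608) at 30.7% and Mylk (0.0248) at 3.43%. The dimmer probe sets of the last pair stood elsewhere, at 37.9% and 46.4% for Mylk and at 56.5% to 90.3% for Cald1. For Cald1 a low spread thus holds for the brightest probe set and not for the gene. The dimmer Mylk probe sets lay only a little under the median SD of their like (0.0906 against 0.0947 and 0.156 against 0.183).

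**Figure D4:**
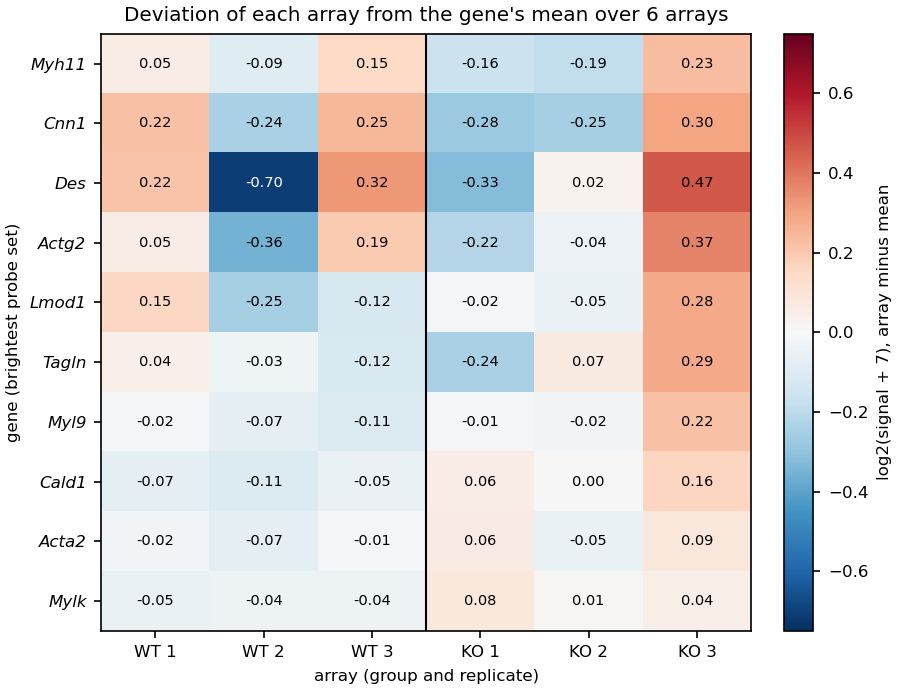
Deviation of each array from the gene's mean over the 6 arrays on the log2(signal + 7) scale, by gene (rows, brightest probe set) and array (columns; WT left, KO right). The column of KO replicate 3 is positive for every gene, and Des, Cnn1, Actg2, Myh11, Tagln and Lmod1 change sign within both genotypes.

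Other genes of the contractile apparatus were read from lists, with 1 probe set per gene, the brightest. Over all 12971 tested genes 2.98% rose and 7.37% fell in KO. Of 28 tested filament and attachment genes, 2 rose and none fell, with a median log2 fold change of 0.208 and higher means for 24. Dmd, dystrophin, which links actin to the cell membrane, rose from 309, 303 and 265 in WT to 371, 385 and 397 in KO, a log2 fold change of 0.39 ± 0.0801 (SE, limma, adjusted p = 0.0212). Itgb1, the integrin beta 1 chain that anchors cells to matrix, rose from 219, 232 and 211 to 290.5, 268 and 301, a log2 fold change of 0.37 (limma, adjusted p = 0.0296). Neither gene's other tested probe sets passed: those of Dmd had log2 fold changes of 0.33 and 0.17, and those of Itgb1 0.22 and 0.27. The tropomyosins that accompany smooth muscle actin did not pass, with Tpm1 at 0.13 and Tpm2 at 0.05 on the log2 scale (limma, adjusted p = 0.202 and 0.751). The dimmer tested probe sets of Tpm2 were higher, at 0.12, 0.32 and 0.35, also without passing (limma, lowest adjusted p = 0.0724). Those of Tpm1 were at 0.19 and 0.17. Tpm4, another tropomyosin, was at 0.30 (limma, adjusted p = 0.0737).

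Of 23 tested contraction signalling genes, 1 rose and 1 fell, with a median of 0.145. Gucy1b1, a subunit of the soluble guanylate cyclase that relaxes smooth muscle in response to nitric oxide, rose from 42.6, 40.5 and 39.0 in WT to 68.9, 54.4 and 69.8 in KO (log2 fold change 0.57, limma, adjusted p = 0.034). Its partner subunit Gucy1a1 was at 0.29 and did not pass (limma, adjusted p = 0.0969). Pln, phospholamban, which holds back the calcium pump of the sarcoplasmic reticulum, fell from 33.4, 19.8 and 37.7 to 10.1, 12.4 and 14.4 (log2 fold change -0.92, limma, adjusted p = 0.0273). Its KO values lay below the limit of 20.5, so Pln was tested only because of its WT arrays. The size of its fall depends on the pseudocount, with -1.20 to -0.43 over the alternatives. The receptors for vasopressin and oxytocin, hormones known to contract myoid cells, were higher in mean without passing: Avpr1a had a log2 fold change of 0.53 and Oxtr one of 0.60 (limma, adjusted p = 0.0597 and 0.122). The angiotensin receptor Agtr1a went the other way, also without passing, at 157, 143 and 174 in WT and 130.3, 106 and 119 in KO (log2 fold change -0.39, limma, adjusted p = 0.067).

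Of 20 tested transcription regulators of contractile genes, 2 rose and none fell, with a median of 0.198. Tead1, a TEAD factor of the kind that binds the MCAT core printed above, rose from 155, 169 and 163 in WT to 216, 224 and 243 in KO, a log2 fold change of 0.47 ± 0.0895 (SE, limma, adjusted p = 0.0166). Its other tested probe set was at 0.29 (limma, adjusted p = 0.317). Mrtfb, an Srf coactivator, rose from 564, 588 and 613 to 680.3, 669 and 744 (log2 fold change 0.24, limma, adjusted p = 0.0433), while its 2 dimmer tested probe sets were at -0.04 and -0.02. Srf itself was at 197, 164 and 182 in WT and 189, 147 and 223 in KO and overlapped (limma, adjusted p = 0.928), and Myocd and Mrtfa had log2 fold changes of 0.33 and -0.21 (limma, adjusted p = 0.271 and 0.166).

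None of the 15 tested paralogues of the members passed in limma, and 7 had an unadjusted p under 0.05, beside 28.5% of all tested probe sets. The nearest were Mylk4, a kinase related to Mylk, with a log2 fold change of -0.53, and Tmod1, a relative of leiomodin, with one of 0.25 (limma, adjusted p = 0.0608 and 0.0633). The 6 calls among the 86 tested genes of these 4 lists depended on single arrays. Without WT replicate 1 there were 0 (0.588% of all probe sets were then called), without WT replicate 3 there was 1 (3.95%), without KO replicate 3 there were 2 (3.81%) and without KO replicate 1 there were 3 (5.68%). With array weights there were 28 (26.7%) and after quantile normalization 10 (8.23%).

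**Figure D5:**
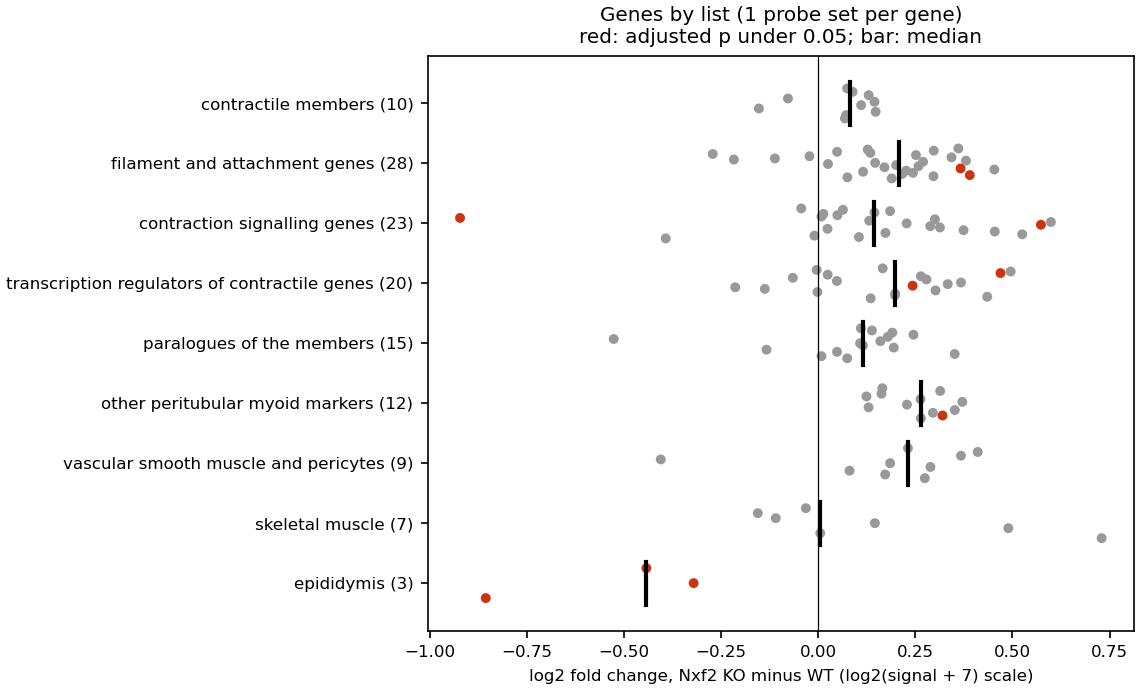
Log2 fold change, KO minus WT, of each tested gene in the contractile, pathway and neighbouring cell type lists (number of tested genes in brackets), on the log2(signal + 7) scale; red points passed at an adjusted p under 0.05 and bars are medians. No point of the contractile members is red, and their median of 0.081 lies below those of the filament, signalling and regulator lists.

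Other markers of myoid cells were read as a list of their own; the difference from the contractile genes was not tested. All 12 tested genes of this list had higher means in KO, with a median of 0.264, beside 56.9% of all tested genes. So did all 9 fibroblast, 7 Leydig and 11 Sertoli cell genes tested in the lists below. Of 11 round spermatid and 3 epididymal genes tested, 0 did. In the myoid list 1 gene rose, beside 2.98% of all tested genes. Col4a2, a basement membrane collagen chain, went from 609, 593 and 735 in WT to 793, 762 and 861 in KO (log2 fold change 0.32, limma, adjusted p = 0.047). Its partner Col4a1 was at 0.26 by the brightest probe set and did not pass (limma, adjusted p = 0.143), while another Col4a1 probe set rose. Ptch1, the Hedgehog receptor of myoid and Leydig progenitor cells, had a log2 fold change of 0.16 (limma, adjusted p = 0.145).

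The labelled tissue was checked against markers of other cell types, among them vascular smooth muscle, which uses the same genes. Beside the counts in this and the next paragraph stand 2.98% rising and 7.37% falling over all tested genes. An unadjusted p under 0.05 in limma was found for 28.5% of all tested probe sets. Markers of vascular smooth muscle and pericytes were present, with a summed signal of 771 to 828 in WT and 831 to 1015 in KO; none of 9 tested passed (4 at an unadjusted p under 0.05), with a median of 0.231. The 2 of lowest p pointed in opposite directions without passing: Ndufa4l2 had a log2 fold change of -0.41 and Mcam one of 0.29 (limma, adjusted p = 0.0549 and 0.0671). Endothelial markers summed to 477 to 498 in WT and 544 to 729 in KO, with 2 of 11 rising, Tek and Robo4 (log2 fold changes 0.48 and 0.61, limma, adjusted p = 0.0398 and 0.043). Of 9 fibroblast genes none passed in limma (1 at an unadjusted p under 0.05), with a median of 0.177 and log2 fold changes of 0.28 for Pdgfra and 0.20 for Col1a2 (limma, adjusted p = 0.0575 and 0.226). Leydig cell genes rose in 2 of 7 tested (Star and Scarb1), Sertoli cell genes in 3 of 11 (Inha, Shbg and Wt1) and macrophage genes in 0 of 10 (6 at an unadjusted p under 0.05, limma), with medians of 0.375, 0.245 and 0.477. The macrophage genes of lowest p, C1qb and Lyz2, had log2 fold changes of 0.64 and 0.53 (limma, adjusted p = 0.0544 and 0.0581). Round spermatid genes fell in 10 of 11, with a median of -0.975. Those of lowest p were Actl7b (-0.84), Tekt2 (-0.69), Zpbp2 (-0.34) and Acrv1 (-2.36, all log2 fold changes). KO replicate 3, the highest array for most contractile genes, also had the highest summed signal in 9 of the 12 marker lists: other myoid markers, vascular smooth muscle and pericytes, endothelium, skeletal muscle, mesothelium, fibroblasts, Leydig cells, Sertoli cells and macrophages. It was at 1015 against 771 to 909 on the other arrays for vascular smooth muscle and pericytes, and at 3387 against 1521 to 2254 for macrophages. For mesothelium it was at 898 against 897 in KO replicate 1, most of it from Wt1 (723 and 755). For skeletal muscle it was at 576 against 515 in KO replicate 2, with Actn3 at 197 and 145. These sums were not rescaled for the higher median signal of KO replicate 3. The part of these cell types in the contractile values was not tested.

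Of 15 skeletal muscle genes 8, Acta1, Ckm, Myh2 and Myh4 among them, were below the limit of 20.5. None of the other 7 passed in limma (1 at an unadjusted p under 0.05), with a median of 0.005, and the 2 of lowest p, Actn3 and Myh1, had log2 fold changes of 0.73 and 0.49 (limma, adjusted p = 0.11 and 0.201). Of the 9 epididymal genes, whose duct carries a smooth muscle coat, 8 had a probe set and 5 of those were below the limit. The 3 tested all fell: Adam7, Aqp9 and Rnase10, by 0.86, 0.32 and 0.44 on the log2 scale (limma, adjusted p = 0.0423, 0.0448 and 0.0467). Adam7 passed the limit through its WT arrays, with a KO mean of 16.7. Lcn5 missed the limit, at 28.9, 23.4 and 27.2 in WT and 6.73, 4.70 and 6.26 in KO, and with no filter its log2 fold change was -1.38 (limma, adjusted p = 0.0131), so the tested genes depend on where the limit lies. The summed signal of all 8 was 818 to 869 in WT and 577 to 712 in KO, most of it from Aqp9 (457 to 661). Fat genes rose in 2 of 5 tested (Car3 and Fabp4), with the highest sum in KO replicate 2. Of 4 tested genes of the tunica's mesothelium 1 rose, Wt1, which is also a Sertoli cell gene.

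The patterns most like those of the contractile genes were sought among 14482 probe sets with 1 symbol and a mean signal of at least 100, by the root mean square difference of profiles scaled to an SD of 1 over the 6 arrays. Nearest to Acta2 were probe sets of Pigq (0.032), Basp1 (0.0859), Emc8 (0.0943), Cnn3 (0.102) and Anapc5 (0.102), Cnn3 being the calponin paralogue of non-muscle cells. Nearest to the mean profile of the 10 genes were Cd24a (0.0863), Tgfbr2 (0.123), Lpp (0.132), Atp6v0b (0.136) and Sptlc2 (0.142). With 6 arrays such likeness is common: 839 probe sets lay within 0.5 of Acta2 and 901 within 0.5 of the mean profile.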

How the data were processed

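Total RNA of 6 testes samples, 3 per genotype, was hybridised to 1 Affymetrix array each. What the authors deposited is a table of intensities, with values for 45037 probe sets beside the controls. The submitters' processing notes name MAS5, with no version given, and each column has the same trimmed mean. Detection calls were not used here. Symbols came from the platform annotation and were updated by Entrez identifier through RefSeq (GRCm38.p6, 34741 of 34945 found). The build and annotation used by the authors are not given in the sources used here. The members and gene lists were chosen with earlier results of these data known. Each value was transformed to log2(signal + 7), 7 being the 25th percentile of all values, which understates changes of dim probe sets. The 27022 probe sets with a mean at or above the 40th percentile (20.5) were tested with limma 3.58.1 in R 4.3.3 (eBayes with trend, two-sided, Benjamini-Hochberg over all of them), after the fit had been tested on simulated data. Group values are mean ± SD, and the number of arrays limits the precision. Named are all member probe sets and, from each list, up to 4 called genes of lowest p or otherwise the 2 of lowest p, with paralogues, partners and regulators of members. Of the list genes, 13 had no probe set with 1 symbol and were not analysed here. Alternatives were other normalizations, pseudocounts, filters, variance models, array weights, a replicate block and leaving out each array.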

Additional observations from a re-analysis of the deposited data

How the results depend on the processing

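Over 15 alternatives the count of contractile probe sets passing stayed at 0, while 0.588% to 26.7% of all probe sets passed. The lowest adjusted p of the contractile probe sets ran from 0.0542 (array weights, Cnn1) to 0.252 (median centring), both from limma. The array weights gave WT replicate 1 a weight of 8.37 against 0.375 to 1.37 for the others, so that fit leans on 1 array. The members' median log2 fold change was 0.037 to 0.083 under the other scalings, pseudocounts and filters and 0.092 with the mean of a gene's probe sets, with array weights -0.057, and between -0.006 (without KO replicate 3) and 0.161 when arrays were left out in turn. Signs turned with array weights for Tagln (-0.028), Des (-0.207), Actg2 (-0.086), Cald1 (-0.054, a dimmer probe set) and Lmod1 (-0.109). They turned without KO replicate 3 for Tagln (-0.051), Des (-0.096), Actg2 (-0.096) and Cald1 (-0.048), without WT replicate 2 for Des (-0.215) and Actg2 (-0.088), and without KO replicate 2 for another Cald1 probe set (-0.063). The highest values when arrays were left out were 0.215 for Tagln, 0.301 for Des, 0.2 for Actg2, and 0.264 and 0.208 for these Cald1 probe sets. The 6 calls among other pathway genes, beside 7.49% of all probe sets, became 10 (8.23%) with quantile normalization and 3 (2.23%) with no dim filter. They became 2 (2.75%) without the trend, 28 (26.7%) with array weights, and 0 to 4 (0.588% to 5.68%) when each array was left out. With the replicate block they became 23, beside 16.7% of all probe sets, and no contractile probe set passed (lowest adjusted p 0.0909, limma). Deviations of same-numbered arrays correlated at 0.0793, 0.457 and 0.266, each the highest value for its KO array. Of the other pairings, WT replicate 1 with KO replicate 3 was at 0.112, and the rest lay between -0.334 and -0.0207. The submitters speak of 3 pairs of testes, but the labels do not say that equal numbers are pairs. The main fit therefore did not use the numbers, and the replicate block did.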
